A study of Mus musculus with 2 samples.

Results

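The immediate early genes described here code for subunits of the transcription factor AP-1 (Jun, Junb, Jund, Fos, Fosb and Atf3), zinc finger factors of the Egr family (Egr1 and Egr2) and a pair of early response genes, Ier2 and Ier3. They were taken as the rows of the count files whose gene identifiers map to these symbols in GENCODE mouse release M21, and all 10 were found, out of 43629 gene rows. Poly-A selected RNA had been sequenced from mouse embryonic stem (ES) cells labelled Drosha knockout, made with a paired CRISPR/Cas9 strategy on the 129/Ola strain background and derived from blastocysts. They were at passage 7, had no treatment and grew in serum plus LIF, which keeps mouse ES cells undifferentiated. Drosha is the nuclear ribonuclease that begins the processing of most microRNAs. Both libraries, B and A, belong to this 1 group. No sample of another genotype was analysed here, so the data give the levels of these genes in such cells and how far the libraries differ, and say nothing of what the loss of Drosha changes.

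The files held 42322129 gene counts for library B and 29264632 for library A. CPM are counts scaled by the library's total after its adjustment by TMM, a factor from edgeR. On this scale 3 counts, the limit that a count of 0 allows, stand at 0.0711 CPM in B and 0.102 CPM in A. Drosha itself had 166.4 CPM in B and 165.8 CPM in A, but the counts are totals over the whole gene and the edited part is not described in the labels, so this total does not check the label. All 10 ES cell markers examined, Pou5f1 and Nanog among them, were at 1 CPM or more in both libraries. In the exact binomial test described below, 3 of them differed between the libraries, with log2 ratios of B over A of 0.071 for Dppa5a, 0.051 for Tdgf1 and -0.22 for Utf1. Of all tested genes 2.29% were called, and 0.791% with the trend in GC content removed. With the GC trend removed Dppa5a and Utf1 were still called, at 0.062 and -0.14, and edgeR's exact test at the estimated dispersion called Utf1 alone, before that removal only. Whether B and A came from different lines is unclear, since their titles carry the numbers 2 and 1 but a single source name. Nothing says that they are separate cultures. With 1 library on each side a difference has no replicate check, and the p-values and intervals below cover counting error only and compare these libraries, not conditions.

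Immediate early genes are transcribed within minutes of a stimulus such as serum, growth factors or stress, without new protein synthesis, and most of their mRNAs are then degraded rapidly. Serum response factor with its partners, bound at the CArG box, and CREB and ATF factors, bound at the cyclic AMP response element, carry signals from ERK and other kinases to their promoters. Fos proteins pair with Jun proteins through leucine zippers to form AP-1, which binds a palindromic DNA site, whereas Jun proteins can also pair with each other. Serum and LIF in the medium supply several of these stimuli continuously, and the libraries sample such a culture and not a time course.

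The promoters of Fos, Junb and Egr2 are shown because they hold the CArG box or the TATAAA word. The sequences are RefSeq's for GRCm38.p6, each 230 bases from 200 before the entry's annotated start, written 5′ to 3′ on the gene's strand. Capitals mark the CArG box, the TATAAA word and TGACG, which is part of the cyclic AMP response element, on either strand. Egr2 has several entries, and the one shown is the first by position that holds both the CArG box and TGACG. The Egr2 entry nearest the GENCODE gene start, chr10:67535249-67535548, held none of the words searched. The windows are chr12:85473690-85473919 on the plus strand for Fos, chr8:84978719-84978948 on the minus strand for Junb and chr10:67537669-67537898 on the plus strand for Egr2.
Fos: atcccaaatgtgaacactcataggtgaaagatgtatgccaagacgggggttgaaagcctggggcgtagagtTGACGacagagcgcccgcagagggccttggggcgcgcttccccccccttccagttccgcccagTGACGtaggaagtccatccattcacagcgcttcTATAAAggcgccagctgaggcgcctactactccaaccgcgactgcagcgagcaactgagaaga
Junb: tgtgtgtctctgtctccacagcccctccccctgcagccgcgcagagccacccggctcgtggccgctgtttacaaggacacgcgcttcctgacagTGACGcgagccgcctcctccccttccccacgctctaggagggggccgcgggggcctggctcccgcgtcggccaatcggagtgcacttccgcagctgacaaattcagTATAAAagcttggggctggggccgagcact
Egr2: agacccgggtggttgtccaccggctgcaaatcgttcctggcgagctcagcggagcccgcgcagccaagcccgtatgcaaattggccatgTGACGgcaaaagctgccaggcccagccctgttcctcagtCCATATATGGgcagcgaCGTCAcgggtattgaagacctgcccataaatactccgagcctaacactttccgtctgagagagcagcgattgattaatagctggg
The base compositions differed, with 57.4% G and C in Egr2, 58.3% in Fos and 66.5% in Junb.

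The RefSeq promoter table matched 8 of the 10 members, Egr1 and Ier2 being the others, and its entries run from 250 bases before a start to 50 after it. Each word was searched on both strands. The 8 genes have 12 entries, since Egr2 has several. A gene was counted if any of its entries held the word, whereas the shares given for comparison are of single entries. TGACG was found in 5 of the 8 genes (Atf3, Egr2, Fos, Fosb and Junb), against 20.8% of all 32851 entries; this word was chosen after the sequences were seen. TATAAA was found in Fos, at bases -33 to -28, and in Junb, against 13.6% of all entries. In Junb it lay at bases 1 to 6 of the RefSeq start, which is upstream of the GENCODE gene. The CArG box was found in Egr2, though not in all of its entries, and in no other matched member, against 1.63% of all entries. GCGGGGGCG, one of the 2 forms of the Egr site searched with GCGTGGGCG, was found in Fosb, against 3.47% of entries for either form. The full cyclic AMP element TGACGTCA, every copy of which also holds TGACG, and the AP-1 site TGACTCA or TGAGTCA were in none of the 8, against 1.79% and 5.20% of all entries. A word that is absent from these windows may lie elsewhere, and a match is no evidence of binding.

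The Jun family, whose members take part in most AP-1 dimers, was led by Jund, the form that many cell types express without a stimulus. Jund (ENSMUSG00000071076, chr8:70698949-70700616, plus strand, 1 exon) had 1170 reads in B and 1015 in A, or 44.1 TPM in B and 55.7 TPM in A (49.9 ± 8.22, SD, n = 2). TPM, the level per length scaled to the library, divides the reads by the exon length before scaling and so allows levels of different genes to be compared. Junb (ENSMUSG00000052837, chr8:84974484-84978718, minus strand) had 790 reads in B and 689 in A, or 21.6 TPM in B and 27.4 TPM in A (24.5 ± 4.13). Jun (ENSMUSG00000052684, chr4:95049034-95052222, minus strand, 1 exon), which codes for the founding Jun subunit, had 251 reads in B and 206 in A, or 4.94 TPM in B and 5.91 TPM in A (5.43 ± 0.684). All 3 genes were lower in B than in A, and the family summed to 70.6 TPM in B and 89.0 TPM in A. Its make-up was nearly the same in both libraries: Jund held 62.4% of the family's TPM in B and 62.6% in A, Junb 30.6% in B and 30.8% in A, and Jun 7.01% in B and 6.64% in A.

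Fos proteins cannot pair with each other and bind DNA as partners of Jun proteins. Fos (ENSMUSG00000021250, chr12:85473890-85477273, plus strand, 4 exons) had 1290 reads in B and 926 in A, or 34.5 TPM in B and 36.0 TPM in A (35.2 ± 1.12, SD, n = 2). Fosb (ENSMUSG00000003545, chr7:19302696-19310051, minus strand, 4 exons), which also gives a short spliced form without part of the activation domain, had 110 reads in B and 87 in A, or 1.11 TPM in B and 1.28 TPM in A (1.19 ± 0.119). Fos was thus nearly the whole family, with 93.8% of its TPM in B and 93.2% in A. Fosb held 3.01% in B and 3.30% in A, Fosl1 1.77% in B and 2.10% in A, and Fosl2 1.41% in B and 1.39% in A. Atf3 (ENSMUSG00000026628, chr1:191170296-191218039, minus strand, 4 exons in the longest transcript), a stress-induced partner of Jun proteins that often represses its targets, had 170 reads in B and 99 in A, or 4.96 TPM in B and 4.21 TPM in A (4.58 ± 0.531). It was the only one of the 10 genes with the higher level in B.

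Egr factors bind GC-rich sites through zinc fingers, and Egr1 is the member most strongly tied to ERK signalling. Egr1 (ENSMUSG00000038418, chr18:34859823-34864984, plus strand, 2 exons) had 7782 reads in B and 5669 in A, the most of any member, or 109 TPM in B and 116 TPM in A (112 ± 4.73, SD, n = 2). Egr2 (ENSMUSG00000037868, chr10:67535475-67542188, plus strand, 2 exons), best known for hindbrain segmentation and Schwann cell myelination, had 20 reads in B and 15 in A, or 0.370 TPM in B and 0.404 TPM in A (0.387 ± 0.0242). Egr1 held 98.9% of the family's TPM in B and 98.7% in A. Egr4 held 0.717% in B and 0.908% in A, and Egr3 had 1 read in B and 5 in A, at or close to the limit of 3 counts.

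Ier2, a small nuclear protein linked to growth factor responses, and Ier3, which modulates ERK signalling and cell survival, share a name but are not close relatives. Ier2 (ENSMUSG00000053560, chr8:84661331-84662852, minus strand, 1 exon) had 3987 reads in B and 2952 in A, or 165 TPM in B and 178 TPM in A (171 ± 9.16, SD, n = 2). Ier3 (ENSMUSG00000003541, chr17:35821684-35822923, plus strand, 2 exons) had 340 reads in B and 260 in A, or 18.9 TPM in B and 21.04 TPM in A (19.96 ± 1.52). Of the 4 Ier genes, Ier2 held 85.1% of the summed TPM in B and 83.9% in A, and Ier3 9.77% in B and 9.94% in A. Ier5l followed with 3.60% in B and 4.79% in A, and Ier5 with 1.49% in B and 1.43% in A.

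**Figure D1:**
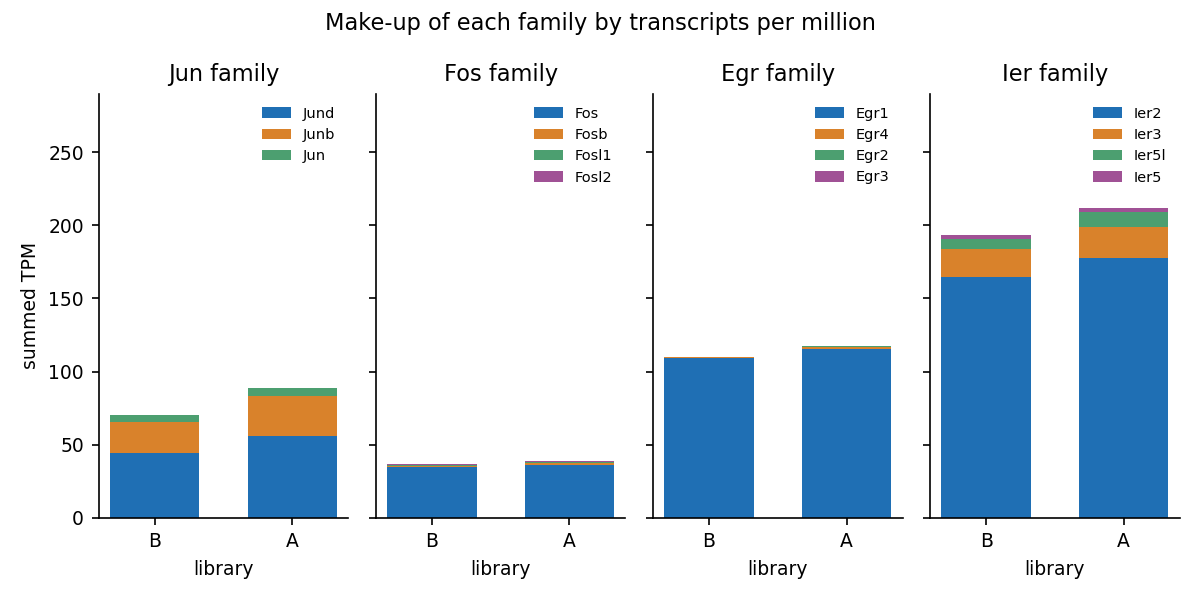
Summed TPM of the Jun, Fos and Egr families and of the Ier genes, grouped by name, with the part held by each gene stacked in its own colour, for library B and library A. Jund leads the Jun family with 62.4% in B and 62.6% in A, while Fos, Egr1 and Ier2 each hold most of their group.

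Per length, Ier2 was the highest of the 10, followed by Egr1, Jund, Fos, Junb, Ier3, Jun, Atf3, Fosb and Egr2. Among the 16031 protein-coding genes with reads in both libraries, Ier2 stood at percentile 95.7 of mean TPM, Egr1 at 92.8, Jund at 82.3 and Fos at 76.1. Jun stood at 41.3, Atf3 at 38.9, Fosb at 24.8 and Egr2 at 15.9. At 1 CPM or more in both libraries were 9 of the 10, Egr2 being the exception. The group thus runs from among the most abundant coding genes to the lower part of the range.

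Neighbours in this order differed beyond counting error in both libraries, with 1 exception. The TPM ratio of Ier2 to Egr1 was 1.51 in B and 1.53 in A, that of Egr1 to Jund 2.47 in B and 2.08 in A, and that of Ier3 to Jun 3.82 in B and 3.56 in A. The exception was Jun and Atf3, whose ratio was 0.997 in B (95% interval 0.818 to 1.22) and 1.41 in A (1.10 to 1.80), so their order was not the same in the libraries. Junb and Ier3 lay close in B, at a ratio of 1.14 (1.004 to 1.30), and further apart in A, at 1.30 (1.13 to 1.51).

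**Figure D2:**
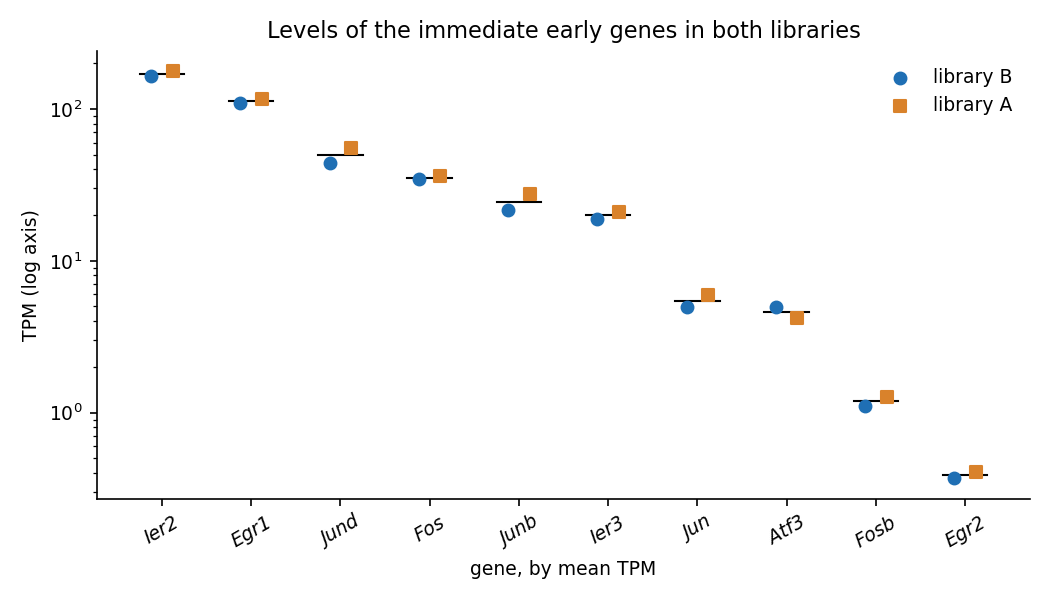
TPM of each gene on a log axis, with library B (circles) and library A (squares) as separate points and a line at their mean. The genes run over more than 2 orders of magnitude, from Ier2 with 165 TPM in B and 178 TPM in A down to Egr2 with 0.370 TPM in B and 0.404 TPM in A, and Atf3 alone has its higher value in B.

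Library B was then compared with library A, to show how far these genes vary between samples of 1 genotype. Junb and Jund were lower in B, and no other member passed the test. A two-sided exact binomial test set each gene's reads against the share expected from library sizes scaled by TMM, with Benjamini-Hochberg adjustment over 18198 genes. Jund was 0.801-fold in B (log2 ratio of B over A -0.32, 95% interval -0.44 to -0.20, adjusted p = 5.69e-05). Junb was 0.797-fold in B (log2 ratio -0.33, -0.48 to -0.18, adjusted p = 0.00169). These are 2 of the 10 members, where 0.989% of all tested genes were called lower in B and 2.29% were called in either direction. Jun, with fewer reads, had a log2 ratio of -0.24 (-0.51 to 0.033), an interval that holds both no difference and the values of Junb and Jund, so whether it differs from them was not detectable at this depth.

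For the other members the test found no difference at the adjusted threshold. The abundant Egr1 and Ier2 had log2 ratios of -0.068 (-0.12 to -0.018, adjusted p = 0.149 in the exact binomial test) and -0.091 (-0.16 to -0.022, adjusted p = 0.170), so their intervals bound the difference to within 0.16 on the log2 scale. Fos, at -0.047 (-0.17 to 0.077), was bounded almost as closely. Ier3 at -0.14 (-0.38 to 0.10), Fosb at -0.19 (-0.61 to 0.24) and Atf3 at 0.25 (-0.11 to 0.63) were less well determined. With its few reads, Egr2 gave an interval of -1.15 to 0.96, which leaves a 2-fold difference in the lower direction within it.

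As a group, 9 of the 10 genes had a ratio below 0, where 50.3% of all tested genes did, and their median log2 ratio was -0.13, against -0.00084 over all tested genes. This is a description of 2 libraries. Reads of the members summed to 376.9 CPM in B and 406.2 CPM in A. None of the members reached a 2-fold difference, which 16 of the genes called in the whole table did.

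**Figure D3:**
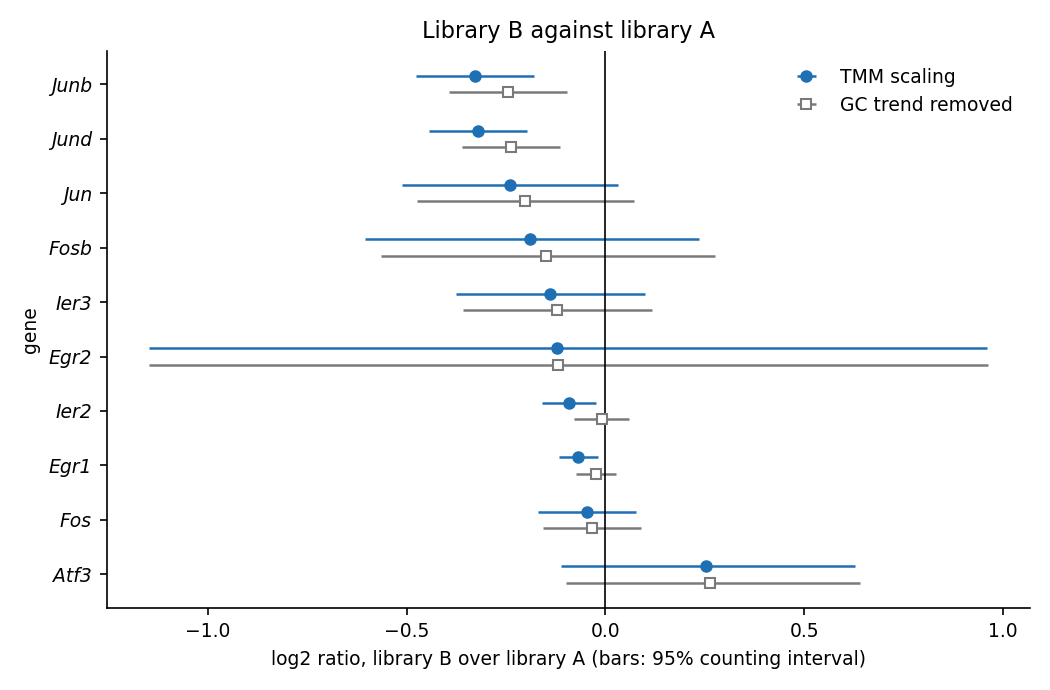
Log2 ratio of library B over library A for each gene, with bars for the 95% counting interval, after TMM scaling (filled circles) and after removal of the GC trend as well (open squares). The intervals of Junb and Jund lie below 0 in both forms, and those of Ier2 and Egr1 include 0 once the trend is removed.

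The ratio of the libraries declined with the GC content of the transcript, which runs high in several of these genes. Over genes with at least 100 reads, the median log2 ratio was 0.046 in the lowest of 20 GC bins and -0.083 in the highest, which spans 59.6 to 73.7% GC. The highest bin holds 675 genes, of which 65 (9.63%) were called lower in B and 1 higher. Jund (67.1% GC), Junb (62.6%) and Ier2 (60.9%) are in it, while Fos (51.9%), Atf3 (52.2%) and Egr2 (51.4%) lie near the middle of the range, with Ier3 at 54.4%, Jun at 55.5%, Fosb at 56.0% and Egr1 at 57.3%. Across the 10 genes the GC content and the log2 ratio had a Pearson correlation of -0.64 and a Spearman correlation of -0.59, given as a description, since all points share the same 2 libraries.

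When the median of each gene's GC bin was subtracted, Jund still passed the test and Junb did not. Jund had a log2 ratio of -0.24 (-0.36 to -0.11), or 0.848-fold (adjusted p = 0.0229, exact binomial test). Junb had -0.24 (-0.39 to -0.095), or 0.844-fold (adjusted p = 0.106, same exact test). Of all tested genes 0.791% were then called, and 0.203% were called lower in B, against 1 of the 10 members. Ier2 moved to -0.0086 (-0.078 to 0.061) and Egr1 to -0.024 (-0.073 to 0.026), both close to 0 with narrow intervals. Jun stood at -0.20 (-0.47 to 0.072) and Atf3 at 0.26 (-0.098 to 0.64). The median of the members was -0.12, against -0.00015 over all genes, and 9 of the 10 remained below 0. Their correlation with GC content was then -0.51 (Pearson) and -0.44 (Spearman), so part of it remained after the subtraction. A bin has 1 median, and Jund stood at percentile 97.8 of GC content within the highest bin.

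Both calls rest on counting error alone. With edgeR's exact test and a common dispersion estimated from both libraries (a coefficient of variation of 2.25%), the adjusted p was 0.0561 for Jund and 0.166 for Junb before the GC trend was removed, and 0.659 for Jund after it, so that no member passed. That dispersion was estimated with B and A taken as 1 group, so it holds the differences under test. It was estimated with the GC trend left in, and the same value was used after the trend was removed.

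The Jun genes were also set beside genes of like composition. Of 35 genes with at least 100 reads and a GC content within 2 points of Jund, 5 had a lower ratio, and their median was -0.11. Of 380 genes within 2 points of Junb, 12 had a lower ratio, with a median of -0.091, and of 2662 near Jun, 114 did, with a median of -0.034. Ier2 and Fos lay within the body of their neighbours, with 344 of 783 and 826 of 2894 genes lower. Atf3 lay at the other end, above 2807 of 2889 genes near it. These neighbours were not matched for read depth, and genes with few reads spread more by counting error. Atf3 (170 reads in B and 99 in A) and Jun (251 in B and 206 in A) had intervals that include 0 and were not called.

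**Figure D4:**
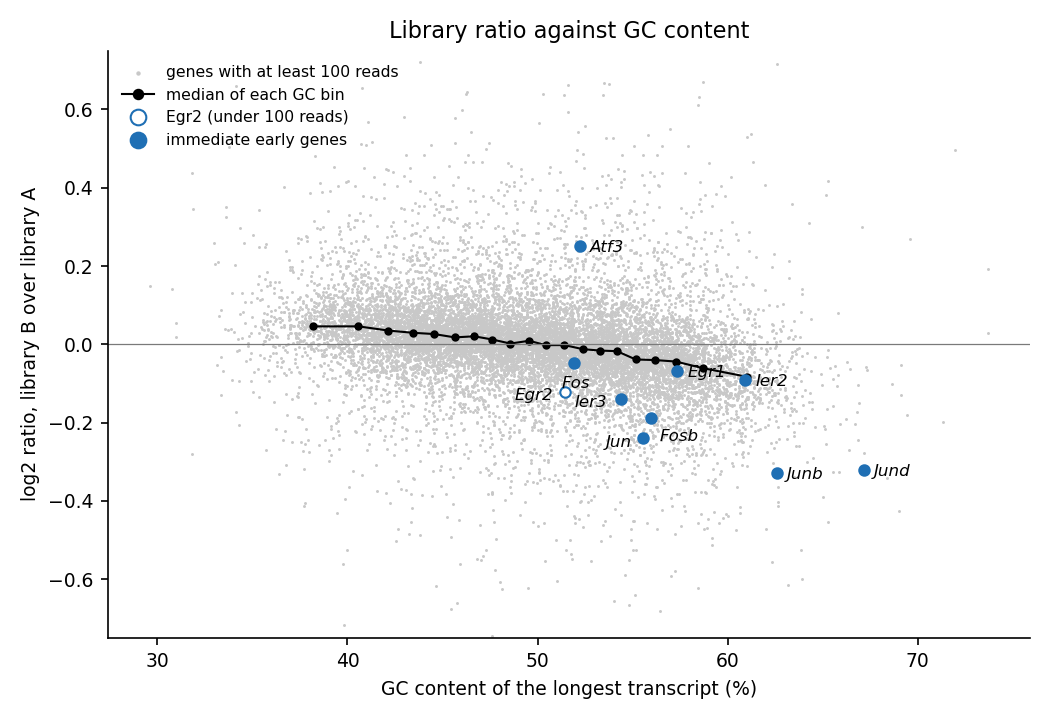
Log2 ratio of library B over library A against the GC content of the longest transcript, for genes with at least 100 reads (grey), with the median of each of 20 GC bins (black line) and the immediate early genes (blue). The line declines to -0.083 in the highest bin, where Junb and Jund lie below it and Ier2 lies on it; 10 genes past 0.75 in either direction are not drawn.

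Base composition was compared in a stretch of the Jun genes' coding sequence of 90 bases, or 30 codons, where the basic region runs into the leucine zipper. This stretch is given from the GENCODE M21 transcripts (GRCm38), 5′ to 3′ on the coding strand, with capitals at the bases that differ from Jun. The stretches lie at chr4:95050390-95050479 on the minus strand for Jun, chr8:84977518-84977607 on the minus strand for Junb and chr8:70699871-70699960 on the plus strand for Jund.
Jun: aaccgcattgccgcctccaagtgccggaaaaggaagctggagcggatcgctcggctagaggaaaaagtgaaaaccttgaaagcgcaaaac
Junb: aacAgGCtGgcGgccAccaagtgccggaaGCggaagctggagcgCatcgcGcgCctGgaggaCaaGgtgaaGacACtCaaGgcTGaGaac
Jund: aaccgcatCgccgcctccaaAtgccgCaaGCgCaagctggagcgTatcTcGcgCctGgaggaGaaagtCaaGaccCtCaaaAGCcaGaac
Junb differed from Jun at 22 bases, of which 16 were at the last position of a codon, and Jund at 20 bases, of which 15 were. G or C filled 93.3% of these last positions in Junb, 86.7% in Jund and 70% in Jun, so the stretches of the called genes, Junb and Jund, are richer in GC at the codon's end than that of Jun. Over all bases the stretches held 63.3% G and C in Junb, 58.9% in Jund and 53.3% in Jun. Junb and Jund thus stood in the reverse order from their longest transcripts, where Jund had 67.1% and Junb 62.6%.

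Gene structure and neighbours were compared as well. The 4 members whose longest transcript has a single exon, Ier2, Jun, Junb and Jund, had a median log2 ratio of -0.28 and a median GC content of 61.7%, and the 6 with more exons a median of -0.095. Single-exon coding genes with at least 100 reads, 616 in number, had a median of 0.0026 and a median GC content of 48.2%, and 1.62% of them were called lower in B. Part of Junb lies opposite Prdx2, a peroxiredoxin gene, with 173 exon bases in common. Prdx2 had 189 CPM in B and 190.4 CPM in A, a log2 ratio of -0.014. Jund shares 877 exon bases with the antisense gene Gm11175, which had 6 reads in B and 3 in A, and Jun shares 232 with the antisense Junos, with 9 in B and 10 in A. A small RNA gene within Atf3, Gm24748, had 0 reads in both libraries. The library protocol is labelled reverse-stranded, but how strand was treated in the counting is not given, so reads of these pairs may not be fully separated.

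Rapid decay of many early mRNAs is tied to AU-rich elements in the 3′ untranslated region. The pentamer ATTTA was present there in 9 of the 10 members, Ier2 being the exception, against 65.4% of 20657 coding genes, with a median length of 1000.5 bases in the members and 992 in all. Ier3 had 5 copies, Fos and Jun had 4 each, and Atf3 and Egr2 had 3 each, whereas Egr1 and Junb had 2 each and Jund and Fosb 1. The longer element TTATTTATT was found in Fos alone, against 7.63% of coding genes. The low-level Egr2 and the abundant Fos thus both carry several copies.

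Other genes of the pathway were read out of the same test, which called 2.29% of all tested genes in either direction. Of the AP-1 partners, which share the basic leucine zipper fold, 14 of 16 had enough reads for the test, and none was called in the exact binomial test, with 4 at an unadjusted p under 0.05 and none called by edgeR's exact test. Their median log2 ratio was -0.041. The most abundant was Atf4, the effector of the integrated stress response, with 511 TPM in B and 532 TPM in A. Mafg had 38.7 TPM in B and 40.4 TPM in A, and Atf2, a partner of Jun, 29.8 TPM in B and 29.9 TPM in A.

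Of 6 tested relatives of the Egr and Ier genes, Ier5l was called lower in B, with 297 reads in each library and thus a log2 ratio of -0.53 (adjusted p = 0.00139 in the exact binomial test). It stayed called at -0.44 with the GC trend removed, but was not called by edgeR's exact test at the estimated dispersion (adjusted p = 0.0632, and 0.382 with the trend removed). Ier5l has 63.8% GC. The Egr corepressors Nab2 (14.9 TPM in B and 16.2 TPM in A) and Nab1 (10.9 TPM in B and 10.2 TPM in A) did not pass the test.

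Of 44 other immediate early genes tested, 24 were lower in B, the median was -0.0064, and Klf2 alone was called. Klf2, a zinc finger factor of the naive ES cell network, had 291 TPM in B and 323 TPM in A, a log2 ratio of -0.14 (adjusted p = 2.72e-06 in the exact binomial test). At 61.6% GC it was not called with the trend removed, nor, without that removal, by edgeR's exact test at the estimated dispersion (adjusted p = 0.700). Mcl1, an antiapoptotic Bcl2 relative, had 340.4 TPM in B and 346 TPM in A, and the kinase gene Sgk1 had 195 TPM in B and 196 TPM in A.

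Of 26 tested kinases and promoter factors that induce immediate early genes, Rps6ka4, the kinase MSK2 that acts on CREB and histone H3, was called lower in B. It had 13.9 TPM in B and 16.8 TPM in A, a log2 ratio of -0.26 (adjusted p = 0.0408 in the exact binomial test), and was not called with the trend removed or by edgeR's exact test at the estimated dispersion (adjusted p = 0.657). The list's median was -0.039 in both forms. Among its most abundant genes were the kinase gene Mapk3 (183 TPM in B and 187 TPM in A) and the CREB relative Atf1 (148 TPM in each).

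Genes of the integrated stress response and heat shock, stimuli to which Atf3 responds, had a median of -0.029 over 18 genes, with 3 called higher in B and 1 lower. Of all tested genes 2.29% were called in either direction. A test of counting error passes small ratios in genes with many reads, such as Hsp90aa1 with 121737 in B and 81746 in A. The chaperones Hsp90aa1 (1945 TPM in B and 1903 TPM in A), Hspd1 (1199.8 TPM in B and 1168 TPM in A) and Hspe1 (452 TPM in B and 432 TPM in A) were higher by 0.050, 0.057 and 0.084 on the log2 scale. Sesn2, a stress-induced gene that restrains mTORC1, was lower, with 142 TPM in B and 152 TPM in A. With the trend removed Hspd1 alone was called, at 0.037, and edgeR's exact test at the estimated dispersion gave all 4 an adjusted p of 1. Asns, an Atf4 target, had 677 TPM in B and 695 TPM in A and did not pass.

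**Figure D5:**
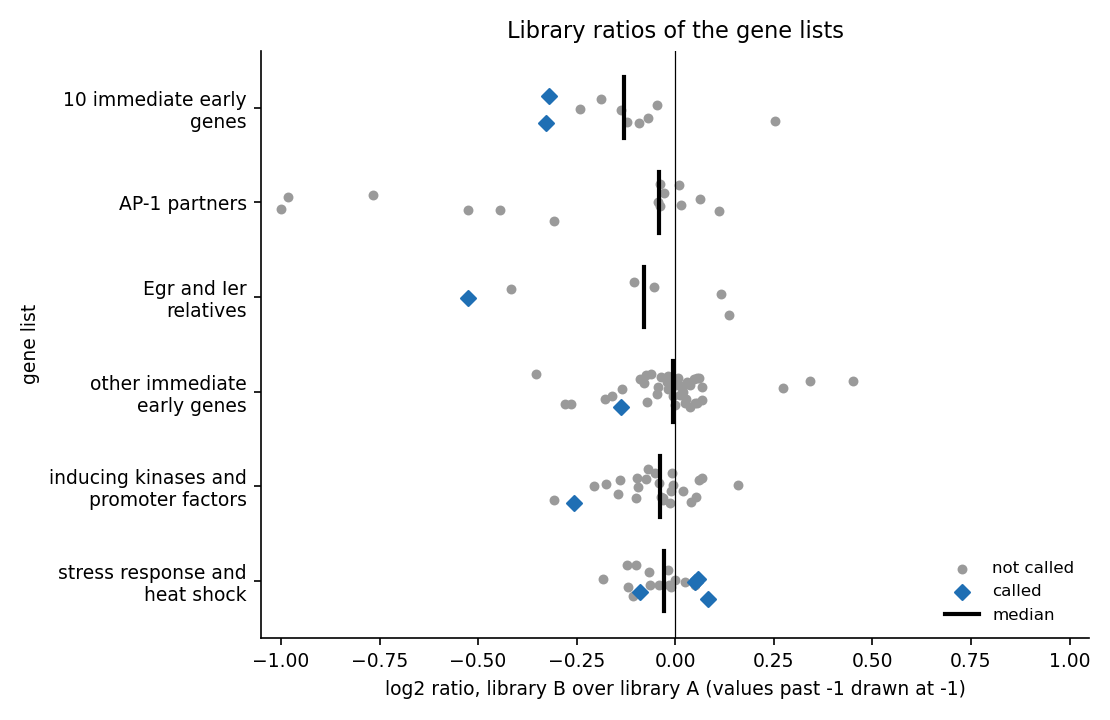
Log2 ratio of library B over library A for every tested gene of each list, with called genes as diamonds and a bar at the list's median; values past -1 are drawn at -1. The medians are -0.13 for the 10 immediate early members and -0.041 for the AP-1 partners, against -0.0064 for the other immediate early genes.

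Cells of another type can also carry these transcripts. Of 15 markers of feeder fibroblasts, 14 had reads in each library and Twist2 was at 0 in both, but only 8 were at 1 CPM or more in both. The markers summed to 1721 CPM in B and 1742 CPM in A, of which Fn1 made up 1511 CPM in B and 1522 CPM in A. Vim followed with 125 CPM in B and 132 CPM in A. Of the 12 with enough reads for the test, the median log2 ratio was -0.16 and 9 had a ratio below 0, while Fbn1 (0.27), Col5a1 (0.074) and Thy1 (0.023) had ratios above 0 that did not pass. Of all tested genes the exact binomial test called 0.989% lower in B, and 0.203% with the GC trend removed. It called 4 of the markers lower in B, with and without the GC trend: Col3a1 (14 reads in B and 47 in A), Dcn (24 in B and 51 in A), Col1a2 (16 in B and 36 in A) and Postn (8 in B and 22 in A). Of these, Col3a1 and Dcn were also called by edgeR's exact test at the estimated dispersion. The part of these markers in the ratios of the immediate early genes was not tested. In bulk RNA, fewer cells that express a gene and less RNA per cell cannot be told apart.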

How the data were processed

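Poly-A RNA of 2 libraries of 1 group was measured. Trizol RNA went into reverse-stranded TruSeq RNA libraries, per the labels' protocols. For each library the authors deposited 1 file of raw counts over Ensembl genes. The submitters' processing notes name STAR 2.4.2a, featureCounts 1.4.5-p1 and mm10, with neither their roles nor their settings.

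Identifiers were matched to GENCODE M21 (97.5% of 43629 IDs), and the others held 0.163% of the reads of each library. Positions are GRCm38, the build of mm10. TPM used the union of a gene's exons, and GC content that of the longest transcript. Library sizes were scaled by TMM (edgeR 4.0.16, R 4.3.3), and genes with 10 or more reads in all were put to an exact binomial test, two-sided, with Benjamini-Hochberg adjustment over all of them and a threshold of 0.05. With 1 library a side edgeR's quasi-likelihood test has no residual degrees of freedom. Log2 ratios had 0.5 reads added, and intervals are exact (Clopper-Pearson, 95%). The GC trend was removed by the median of each of 20 bins, fitted on genes with at least 100 reads. The test was tested on simulated data.

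The members and gene lists were chosen with earlier results of these data known. Named are the members, the genes that overlap them and, of each other list, its called genes and its 3 with the highest mean TPM, of which 1 is not reported here. Of the listed symbols, Cyr61, Ctgf, Mkl1 and Mkl2 are older names of genes listed also as Ccn1, Ccn2, Mrtfa and Mrtfb. Alternatives were other scalings, filters of 1 and 50 reads, 10 and 40 GC bins, other GC and length measures, and edgeR's exact test with an estimated dispersion or an assumed coefficient of variation of 0.1. Scaling by TMM over all rows and a running GC median of 400 genes were added after the data were seen, as was the TGACG word. DESeq2 1.42.0 size factors were one of the scalings. Python 3.11.15 was used, with scipy 1.17.1, pandas 2.3.3, numpy 2.4.6 and matplotlib 3.10.9.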

Additional observations from a re-analysis of the deposited data

How the results depend on the processing

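The choice of test changed the calls most. With edgeR's exact test at the estimated dispersion 11 genes were called in place of 417 by the exact binomial test, and at an assumed coefficient of variation of 0.1 1 was. With the GC trend removed, 10 and 1 were called in place of 144. Of the members 0 were called in each of these 4 fits, against 2 and 1, and at an unadjusted p under 0.05 the binomial test held 4 and 2. The adjusted p at the assumed value was 1 for Junb and Jund. Under other scalings, filters, GC bins and GC measures the members called stayed at 2 and 1: Jund with the GC trend removed had adjusted p values of 0.0106 to 0.0365 and Junb of 0.0735 to 0.144. The GC bin medians absorb any change of scaling, so with the trend removed the other scalings could not alter the result. Only the filters, GC bins and GC and length measures varied that fit. The running GC median gave Junb and Jund the same shift of -0.093, so it did not follow the trend up to Jund's GC content. The 35 genes within 2 points of Jund had a median of -0.11. The split of the 417 calls was 180 lower and 237 higher in B. By total counts 242 of 422 were lower, and by TMM over all rows 152 of 463. The members' median TPM was 22.2, and 20.2 to 24.2 in a single library. With the length of the longest transcript in place of the exon union, the TPM of 9 members moved by more than their SD, and the order of the members stayed as given. No paired analysis was possible because the libraries belong to 1 group, and leaving out either leaves no comparison. Depth limits Egr2, Fosb, Atf3 and Jun most.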
